A study of Solanum lycopersicum with 17 samples.

Results

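MDHAR and GPXle-2 are tomato genes for a pair of antioxidant enzymes, described here across 6 groups of fruit. They were taken by gene symbol, as every probe set that the platform annotation gives either name, which came to 3 of the 10101 probe sets measured. MDHAR had 1 probe set and GPXle-2 had 2, called the bright and the faint one here after their levels, with their platform IDs given in the plot of levels by array. The genes were selected on their levels in these same arrays, so their values are given as a description with standard errors and with no test.

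Monodehydroascorbate reductase, the product of MDHAR, returns the radical left when ascorbate gives up an electron to ascorbate itself, with NADH or NADPH as the donor. It works beside ascorbate peroxidase, which spends ascorbate on hydrogen peroxide, and dehydroascorbate reductase, which rebuilds ascorbate at the expense of glutathione. Plant glutathione peroxidases such as GPXle-2 remove lipid hydroperoxides and hydrogen peroxide. They carry cysteine where many animal enzymes carry selenocysteine, and often take their electrons from thioredoxin.

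RNA was measured on 17 arrays, each from a pool of 8 fruits of 1 plant. Wild-type fruit formed both controls, 3 arrays with the seeds in place and 3 after the seeds had been removed by hand. The 4 transgenic lines carried the bacterial auxin synthesis gene iaaM or the bacterial gene rolB, which alters the response to auxin, each behind the ovule promoter INO or the placenta and ovule promoter DefH9. Each line had 3 arrays, but for DefH9-RolB with 2. The cultivar, the age of the fruit and the number of transformation events behind a line are not given in the labels. All values are levels on the log2 scale after RMA, the authors' background correction, quantile normalization and summary of probes, and a difference of 1 is a doubling.

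A few facts of the arrays bear on every value. RNA quality was read from the signal at the 5' end of actin and gapdh less that at their 3' end, on the platform's control probes. This 5' minus 3' signal had a mean of -0.74 ± 0.15 (SD, n = 3) where wild-type fruit kept its seeds and -0.69 ± 0.19 (n = 3) for the seedless control, and reached -0.37 ± 0.0035 (n = 2) in DefH9-RolB. The other lines lay between these, at -0.50 ± 0.11 in INO-IaaM, -0.50 ± 0.18 in DefH9-IaaM and -0.43 ± 0.022 in INO-RolB (n = 3 each). Another technical measure, the hybridization spike difference BioC minus BioB, was 0.59 ± 0.091 (SD, n = 6) in the controls. It was 0.54 ± 0.055 (n = 6) in the iaaM lines and 1.09 ± 0.029 (n = 5) in the rolB lines. Where the rolB lines are set against the controls or the iaaM lines, transgene and spike signal cannot be told apart. The summed signal of 5 seed markers, as log2, ran from 14.16 to 14.53 in the control with seeds, from 13.35 to 13.53 in the control without seeds and from 12.73 to 13.64 in the lines. The markers disagreed. AGAL and GolS-1 fell to the range of silent probe sets on 1 to 3 arrays of the control without seeds and of every line, while LOC544276 fell but stayed above it. These markers were chosen with earlier results of these arrays known. TAS14 averaged 10.46 in the control with seeds and 8.70 in the control without seeds, 8.47 in INO-IaaM and 8.91 in DefH9-IaaM, but 11.18 in INO-RolB and 11.44 in DefH9-RolB. LEA14 averaged 13.06 with seeds, 13.21 without and 12.73 to 12.92 in the lines. The silent range, taken from 61 reporter probe sets, ended at 5.49. Of 6 fruit markers, 2A11, TDR4, MADS1, E8 and PG2 were above the silent range on every array, and TPRP-F1 was in it on 8. In bulk fruit, fewer cells of a type and less RNA per cell cannot be told apart.

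MDHAR was on average higher in each of the 4 lines than in either control, and in the fit by group alone it differed between the lines by no more than its error. In the control with seeds it read 7.46, 7.81 and 7.57. In the control without seeds it read 7.71, 8.10 and 7.50. The controls overlapped.

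INO-IaaM fruit read 8.42, 8.20 and 8.49 for MDHAR, and DefH9-IaaM fruit 8.45, 8.10 and 8.44. INO-RolB fruit read 8.10, 8.45 and 8.26, and DefH9-RolB fruit 8.09 and 8.36. The 11 line arrays thus ran from 8.09 to 8.49 with a median of 8.36, and the 6 control arrays from 7.46 to 8.10 with a median of 7.64. A single control array, replicate 2 of the control without seeds, lay above a line array, DefH9-RolB replicate 1, with a gap of -0.012.

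The order of the MDHAR group means was INO-IaaM (8.37 ± 0.15), DefH9-IaaM (8.33 ± 0.20), INO-RolB (8.27 ± 0.17), DefH9-RolB (8.22 ± 0.19), control without seeds (7.77 ± 0.31) and control with seeds (7.61 ± 0.18). Between neighbours in this order, the step from DefH9-RolB down to the control without seeds, 0.45 ± 0.18 (SE), was the one larger than the SD within groups, and every other step was smaller than its standard error. MDHAR was a gene of middle level, since its mean over all arrays stood at the 45.52 percentile of the probe sets.

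Against the control with seeds, the MDHAR difference was 0.75 ± 0.16 (SE) in INO-IaaM, 0.72 ± 0.16 in DefH9-IaaM, 0.66 ± 0.16 in INO-RolB and 0.61 ± 0.18 in DefH9-RolB. The mean of the 4 lines stood 0.69 ± 0.13 above the control with seeds, a fold of 1.61 with a 95% interval of 1.33 to 1.95, and 0.53 ± 0.13 above the control without seeds, a fold of 1.44 with an interval of 1.19 to 1.75. These comparisons share the control arrays, and so do not stand as separate observations. Removal of the seeds from wild-type fruit went with a difference of 0.16 ± 0.16, which is no more than its error.

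The 4 lines were close to each other in MDHAR. The iaaM lines minus the rolB lines gave 0.10 ± 0.12, with a 95% interval from -0.16 to 0.36. With the 5' minus 3' signal added to the fit as a covariate, this came to 0.20 ± 0.099, with an interval from -0.011 to 0.418. The DefH9 lines minus the INO lines gave -0.04 ± 0.12, and the promoter by transgene interaction gave 0.01 ± 0.24, with a 95% interval from -0.51 to 0.54.

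**Figure D1:**
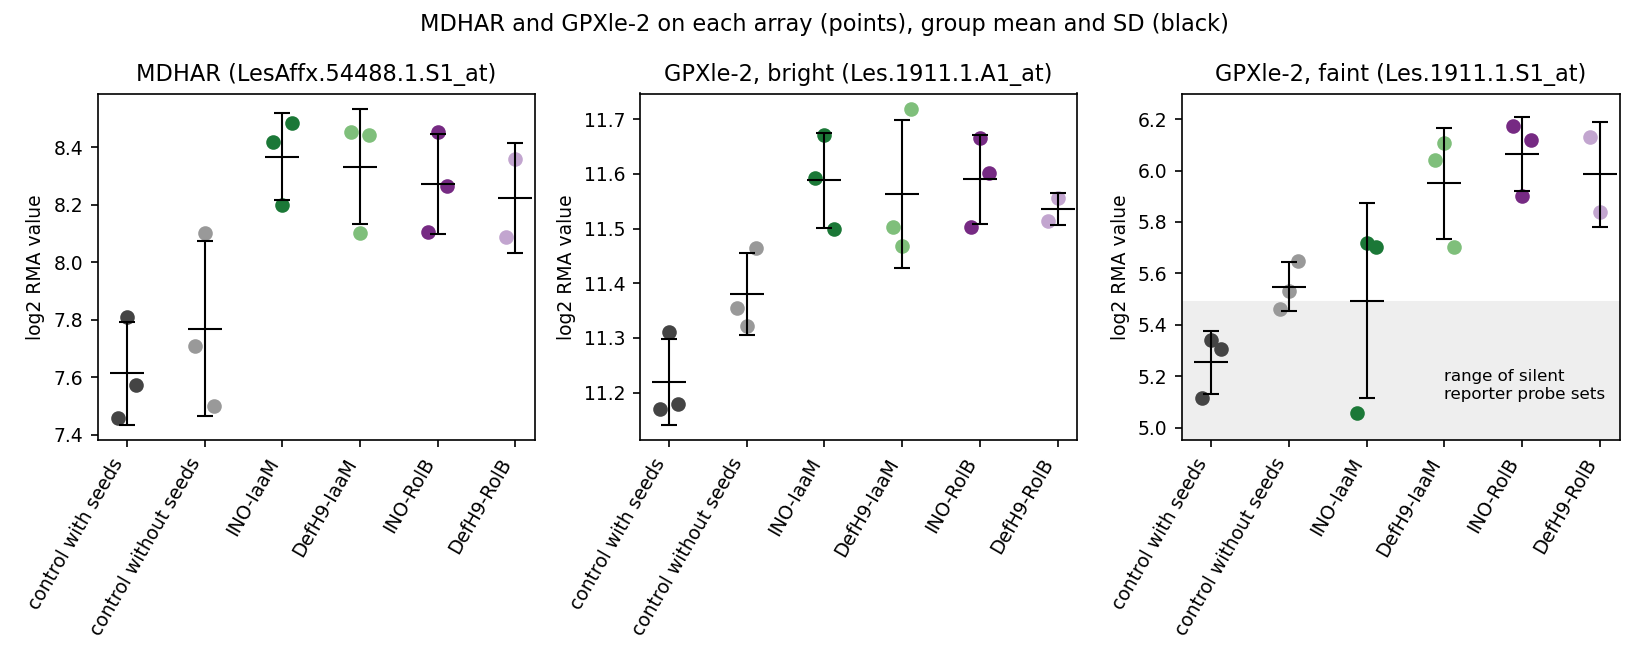
Log2 RMA level of MDHAR and of both GPXle-2 probe sets on each of the 17 arrays, by group, with group means and SD in black. MDHAR lines and controls overlap by 1 array, the brighter GPXle-2 probe set has every line array above every control array, and the fainter one lies partly in the shaded range of silent reporter probe sets, which ends at 5.49.

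MDHAR also moved with the RNA quality measure. With the group means removed, its correlation with the 5' minus 3' signal over the 17 arrays was 0.704 (Spearman 0.718), and 0.535 without the 2 arrays farthest out. Over all probe sets this correlation had a median of 0.027, and 4% of probe sets were at or above MDHAR. Within the 11 line arrays the correlation was 0.412 and within the 6 control arrays 0.719.

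When the 5' minus 3' signal was added to the fit as a covariate, the MDHAR difference from the control with seeds came to 0.50 ± 0.15 in INO-IaaM, 0.46 ± 0.15 in DefH9-IaaM, 0.33 ± 0.16 in INO-RolB and 0.22 ± 0.19 in DefH9-RolB. The mean of the 4 lines then stood 0.38 ± 0.14 above the control with seeds and 0.28 ± 0.13 above the control without seeds, which is 55.2% and 51.9% of the values without the covariate. The part of RNA quality in the MDHAR difference was not tested beyond this fit. The control without seeds on which MDHAR was highest, replicate 2, carried much of that group's spread, and without it the mean of the 4 lines stood 0.70 ± 0.13 above the control without seeds.

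**Figure D2:**
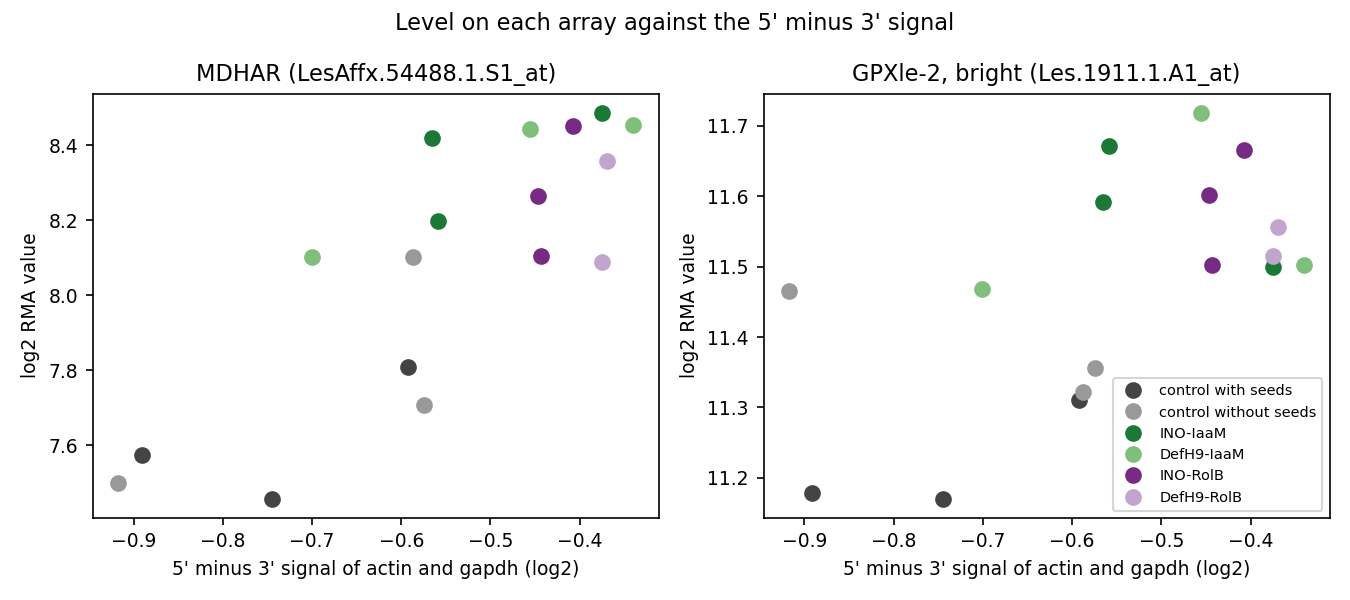
Log2 RMA level of MDHAR (left) and of the brighter GPXle-2 probe set (right) on each array against the 5' minus 3' signal, the measure of RNA quality (log2). MDHAR rises with the signal also inside the groups (0.704 with group means removed), and GPXle-2 does not (-0.0409).

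GPXle-2 on its bright probe set, at the 89.59 percentile of levels, was on average higher in every line than in wild-type fruit of either kind. The control with seeds read 11.17, 11.31 and 11.18, and the control without seeds read 11.36, 11.32 and 11.47. The mean of the seedless control was 0.16 ± 0.086 (SE) above that of the seeded one, with a 95% interval from -0.024 to 0.345. In size this difference stood at the 57.87 percentile of all probe sets.

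INO-IaaM fruit read 11.59, 11.67 and 11.50 on this GPXle-2 probe set, and DefH9-IaaM fruit 11.50, 11.47 and 11.72. INO-RolB fruit read 11.50, 11.67 and 11.60, and DefH9-RolB fruit 11.51 and 11.56. All 11 line arrays, from 11.47 to 11.72, lay above all 6 control arrays, from 11.17 to 11.47, but the gap between the lowest line and the highest control was 0.0027. Such a complete split in this direction was found for 276 of the 10101 probe sets, or 2.73%. GPXle-2 was selected on these arrays, so nothing is read from its being among them.

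The order of the GPXle-2 means was INO-RolB (11.59 ± 0.08), INO-IaaM (11.59 ± 0.09), DefH9-IaaM (11.56 ± 0.14), DefH9-RolB (11.54 ± 0.03), control without seeds (11.38 ± 0.08) and control with seeds (11.22 ± 0.08). The 4 lines differed from each other by less than the spread within groups. The steps from DefH9-RolB to the control without seeds, 0.15 ± 0.096 (SE), and between the controls, 0.16 ± 0.086, were larger than their standard errors but small.

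Against the control with seeds, the GPXle-2 difference was 0.37 ± 0.086 in INO-IaaM, 0.34 ± 0.086 in DefH9-IaaM, 0.37 ± 0.086 in INO-RolB and 0.32 ± 0.096 in DefH9-RolB. The mean of the 4 lines stood 0.35 ± 0.069 above the control with seeds, a fold of 1.27 with a 95% interval of 1.15 to 1.41. It stood 0.19 ± 0.069 above the control without seeds, a fold of 1.14 with an interval of 1.03 to 1.26. On this probe set the seedless control lay between the seeded one and the lines.

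Between transgenes and between promoters, the bright GPXle-2 probe set differed by no more than its error. The iaaM lines minus the rolB lines gave 0.01 ± 0.064, with a 95% interval from -0.13 to 0.15, and the DefH9 lines minus the INO lines gave -0.04 ± 0.064. With the group means removed its correlation with the 5' minus 3' signal was -0.0409, and with that signal as a covariate the mean of the 4 lines stood 0.36 ± 0.097 above the control with seeds and 0.19 ± 0.089 above the control without seeds. Here the values with and without the covariate were nearly alike, unlike those of MDHAR.

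The faint GPXle-2 probe set stood at the 24.26 percentile of levels and gave another order of the lines. The control with seeds read 5.11, 5.34 and 5.31, all inside the range of silent probe sets, and the control without seeds 5.46, 5.53 and 5.65. INO-IaaM read 5.06, 5.72 and 5.70, DefH9-IaaM 6.04, 6.11 and 5.70, INO-RolB 6.17, 5.90 and 6.12, and DefH9-RolB 6.13 and 5.84. Lines and controls overlapped, through INO-IaaM replicate 1, which was the lowest of all 17 arrays. Unlike on the bright probe set, the INO-IaaM mean (5.49) was not above that of the control without seeds (5.55). Over that control the difference was -0.055 ± 0.17 (SE) in INO-IaaM, 0.40 ± 0.17 in DefH9-IaaM, 0.52 ± 0.17 in INO-RolB and 0.44 ± 0.19 in DefH9-RolB.

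On this faint GPXle-2 probe set the difference from the control with seeds was 0.24 ± 0.17 in INO-IaaM, 0.70 ± 0.17 in DefH9-IaaM, 0.81 ± 0.17 in INO-RolB and 0.73 ± 0.19 in DefH9-RolB. Because the control was in the silent range, these can understate the true differences. Without INO-IaaM replicate 1 the INO-IaaM difference was 0.46. The iaaM lines minus the rolB lines gave -0.30 ± 0.13, where the bright probe set gave 0.01 ± 0.064. The hybridization spike difference BioC minus BioB was 1.09 in the rolB arrays and 0.54 in the iaaM arrays, so that on these arrays transgene and spike signal cannot be told apart. The promoter by transgene interaction gave 0.54 ± 0.25, or 0.32 without that array. Which part of the transcript, or which strand, each probe set covers is not given in the sources used here.

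**Figure D3:**
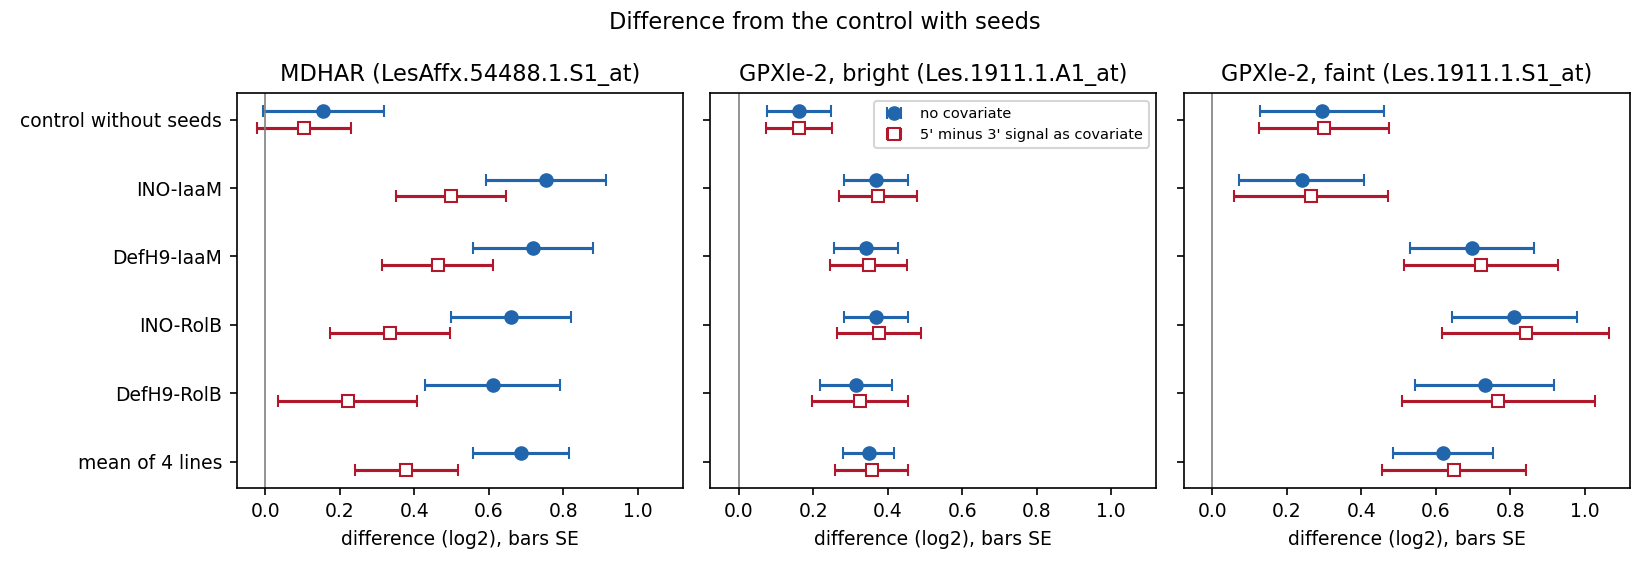
Difference of the control without seeds, of each line and of the mean of the 4 lines from the control with seeds, in log2, for MDHAR and both GPXle-2 probe sets, with SE bars. Filled circles are the fit without a covariate and open squares the fit with the 5' minus 3' signal, which lowers the MDHAR differences (0.69 to 0.38 for the mean of the lines) and leaves the bright GPXle-2 probe set nearly where it was (0.35 and 0.36).

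MDHAR and the bright GPXle-2 probe set moved together between groups and hardly within them. Their correlation over the 17 arrays was 0.784, and with the group means removed it was 0.132. The faint GPXle-2 probe set gave 0.446 with MDHAR over the 17 arrays and -0.337 with the group means removed. The 5 named probe sets whose levels were most like MDHAR over the 17 arrays were mMDH1 (Pearson 0.939), VPE5 (0.933), TFT7 (0.916), STV3 (0.913) and VAHOX1 (0.898). For GPXle-2 on its bright probe set they were LOC100037517 (0.901), another probe set of mMDH1 (0.887), LOC778317 (0.887), TFT7 (0.881) and VAHOX1 (0.879). Both lists held mMDH1, for a mitochondrial malate dehydrogenase, TFT7, for a 14-3-3 protein, and VAHOX1, for a homeobox protein. Over all probe sets, 112 exceeded a correlation of 0.9 with MDHAR and 15 with GPXle-2, and the arrays share their groups and their normalization.

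The genes that work beside MDHAR in the use and recycling of ascorbate passed none of the tests run against a control. None of the 5 (APX, APX1 and APX2 for ascorbate peroxidases, DHAR1 and DHAR2 for dehydroascorbate reductases) passed limma's test, at an adjusted p under 0.05, in any line against the control with seeds, or in the mean of the lines against either control. Single lines were not tested against the control without seeds. The closest to MDHAR in size was APX1, at 7.45 ± 0.29 (SD, n = 3) in wild-type fruit with seeds, 7.64 ± 0.52 in INO-IaaM, 8.22 ± 0.71 in DefH9-IaaM, 8.08 ± 0.27 in INO-RolB and 8.02 ± 0.19 (n = 2) in DefH9-RolB. Its mean over the lines stood 0.54 ± 0.27 (SE) above the control with seeds with a limma adjusted p of 0.148, and the spread within DefH9-IaaM alone was larger than that difference. APX2 (0.10 ± 0.095) and APX (0.10 ± 0.10) gave smaller values, and DHAR2, at 10.13 to 10.22 in every group mean, gave -0.03 ± 0.088. The second APX2 probe set had the opposite sign, at -0.14 ± 0.076 (limma adjusted p 0.196). Over the control without seeds it gave 0.06 ± 0.076.

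DHAR1 was the one gene of ascorbate recycling that passed a test, between the transgenes. On its brighter probe set the 6 iaaM arrays read 12.08 to 12.20 and the 5 rolB arrays 12.35 to 12.45, while the 6 control arrays ran from 12.22 to 12.48. The iaaM lines stood -0.29 ± 0.054 from the rolB lines (limma adjusted p 0.0146, and 0.0604 without DefH9-RolB replicate 1). On the second DHAR1 probe set the iaaM arrays (11.49 to 11.75) and the rolB arrays (11.66 to 11.935) overlapped. It gave -0.20 ± 0.080 (limma adjusted p 0.193). The hybridization spike difference BioC minus BioB was 0.54 ± 0.055 in the iaaM arrays, 1.09 ± 0.029 in the rolB arrays and 0.59 ± 0.091 in the controls, and transgene and this technical difference cannot be told apart.

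GPXle-1, the other named glutathione peroxidase, was not called in any line against the control with seeds. Its group means were 13.02 ± 0.08 in the control with seeds, 12.78 ± 0.09 in the control without seeds, 13.06 ± 0.04 in INO-IaaM, 13.04 ± 0.21 in DefH9-IaaM, 13.14 ± 0.18 in INO-RolB and 12.99 ± 0.06 in DefH9-RolB. The mean of the lines was 0.28 ± 0.089 above the control without seeds (limma adjusted p 0.0469), a call lost in 14 of 21 alternative settings. Among them were the replicate block (0.0718) and the omission of any 1 of 12 arrays, each of the 3 seedless controls included. With the 5' minus 3' covariate the difference was 0.20 ± 0.11, and its adjusted p of 0.336 was the highest of all settings. Over the seedless control the single lines, not tested, gave 0.28 ± 0.11 in INO-IaaM, 0.26 ± 0.11 in DefH9-IaaM, 0.36 ± 0.11 in INO-RolB and 0.21 ± 0.12 in DefH9-RolB. Over the seeded control their mean was 0.04 ± 0.089 with an adjusted p of 0.747. The seedless control minus the seeded one was -0.23 ± 0.11 for GPXle-1 (limma adjusted p 0.331) and 0.16 ± 0.086 for GPXle-2, with opposite signs.

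A list of 33 named antioxidant genes, made up from the platform's symbols, gave the wider setting of the pair. Of all probe sets, 1.02% were higher and 3.31% lower in the control without seeds than in the control with seeds, and the list had 1 gene higher (IMP1) and 2 lower (ctu1 and SODCP.2). The SODCP.2 call (-0.82 ± 0.21, limma adjusted p 0.0453) was lost with the replicate block (0.0669) and in 11 of 13 settings in all, the omission of any 1 control array among them. Against the control with seeds, 8.24% of probe sets were higher and 7.83% lower in INO-IaaM, 9.5% and 8.14% in DefH9-IaaM, 11.9% and 9.68% in INO-RolB, and 8.89% and 7.27% in DefH9-RolB. The list had 2 genes higher in each line, and 0, 1, 2 and 2 lower, in the same order. In the mean of the lines 17.3% of probe sets were higher and 12.4% lower than in the control with seeds, and the list had 4 higher and 3 lower. Against the control without seeds these were 8.71% and 8.43%, with 3 list genes each way. The median difference of the list, for the mean of the lines over the seeded control, was 0.05, as was that of all probe sets. For the iaaM lines minus the rolB lines, 0.99% of probe sets were higher and 1.93% lower, and the list had DHAR1 as its 1 lower gene. No list gene had all 11 line arrays above the 6 controls, a split found for 2.73% of all probe sets. A list of 33 genes is too short to be told apart from that share.

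The list genes that rose against the control with seeds in a single line or group were GSH1, GSH2 and IMP1. GSH1, for glutamate-cysteine ligase, was higher than in the control with seeds in INO-IaaM (0.27 ± 0.086, limma adjusted p 0.0471) and in DefH9-IaaM (0.28 ± 0.086, 0.039), calls lost without any 1 control array with seeds and in 9 and 7 of 13 settings in all. GSH2, for glutathione synthetase, was higher in INO-IaaM (0.42 ± 0.12, 0.0311), INO-RolB (0.48 ± 0.12, 0.0131) and DefH9-RolB (0.51 ± 0.13, 0.0203). The mean of the lines for GSH2 was 0.42 ± 0.096 higher (0.00557), and its call held in all 21 alternative settings. Over the control without seeds that mean was only 0.10 ± 0.096 higher (limma adjusted p 0.52). Removal of the seeds alone gave 0.32 ± 0.12 for GSH2 (0.186). In each single line the GSH2 call was lost without replicate 3 of the control with seeds, in INO-IaaM also without replicate 2 of that control or replicate 1 or 2 of the line, and in DefH9-RolB also without its replicate 1 (up to 0.153). IMP1, an inositol monophosphatase whose family also acts on galactose 1-phosphate in ascorbate synthesis, rose in DefH9-IaaM (0.62 ± 0.20, 0.0462), INO-RolB (1.13 ± 0.20, 0.00193) and DefH9-RolB (1.03 ± 0.22, 0.00774), and rose on removal of the seeds alone (1.07 ± 0.20, 0.00641). Its call was lost in DefH9-IaaM without any 1 control array with seeds or without replicate 2 or 3 of the line (up to 0.138), and in DefH9-RolB without replicate 1 (0.076).

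Those that fell in a line, on the probe set that stood for the gene, were ctu1, CITRX and AOX1a. The symbol ctu1 belongs to a tau class glutathione S-transferase, and it dropped from 7.08 ± 0.43 in the control with seeds to 4.77 ± 0.70 in the control without seeds (limma adjusted p 0.00212). It was lower also in DefH9-IaaM (5.51 ± 0.20, 0.0113), INO-RolB (5.61 ± 0.57, 0.013) and DefH9-RolB (4.75 ± 0.23, 0.00243). The levels in the control without seeds and DefH9-RolB lie in the silent range, and their differences are therefore lower limits. CITRX, a thioredoxin, fell in INO-RolB (-0.43 ± 0.14, 0.045), and AOX1a, an alternative oxidase, in DefH9-RolB (-0.79 ± 0.21, 0.0239). Both calls were lost without any 1 control array with seeds, and CITRX also without replicate 2 or 3 of INO-RolB or with the replicate block (0.0585), and AOX1a without either DefH9-RolB array. The ctu1 call was lost in DefH9-IaaM and INO-RolB without replicate 3 of that control, and in INO-RolB also without its replicate 1. With the 5' minus 3' covariate, the calls of GSH1, CITRX, AOX1a and of ctu1 in the lines were lost (adjusted p up to 0.375 in single lines), as were those of GSH2 in INO-IaaM and DefH9-RolB and of IMP1 in both DefH9 lines.

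The probe sets of FESOD, an iron superoxide dismutase gene, disagreed. The brighter, at a mean of 13.67 in the control with seeds, stood for the gene and was not called. The other, at 10.40 there, was lower in DefH9-IaaM (-1.08 ± 0.20, limma adjusted p 0.00277) and in the mean of the lines over the seeded control (-0.66 ± 0.16, 0.00754), calls that held in all 13 and 21 settings. It was lower also in INO-RolB (-0.59 ± 0.20, 0.0464), a call lost without any 1 control array with seeds or replicate 2 or 3 of the line, and in the line mean over the seedless control (-0.62 ± 0.16, 0.0185), a call lost without replicate 1 or 3 of that control. With the 5' minus 3' covariate both of these calls were lost too (limma adjusted p 0.0958 and 0.0647). The INO-RolB call was also lost with quantile normalization again. A few more genes, chosen after their values were seen, were called in the line means. Over the seeded control, the catalase gene cat1 was 0.24 ± 0.073 higher (limma adjusted p 0.0244) and the metallothionein gene MT2 1.06 ± 0.35 higher (0.037). The line mean of cat1 stood -0.02 ± 0.073 from the seedless control (0.876), and removal of the seeds alone gave 0.26 ± 0.091 (0.157). Against the control without seeds, the superoxide dismutase gene SODCP.2 was 1.08 ± 0.17 higher (0.00186), and the metallothionein genes MT3 (-0.78 ± 0.23, 0.0342) and MTA (-0.47 ± 0.12, 0.0152) were lower. Over the seeded control the line mean of SODCP.2 was 0.26 ± 0.17 higher and not called (limma adjusted p 0.271). The SODCP.2 call in the mean of the lines over the seedless control held in all 21 settings, while those of cat1, MT2, MT3 and MTA were lost with the 5' minus 3' covariate and without any 1 of 2, 6, 7 and 2 arrays.

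**Figure D4:**
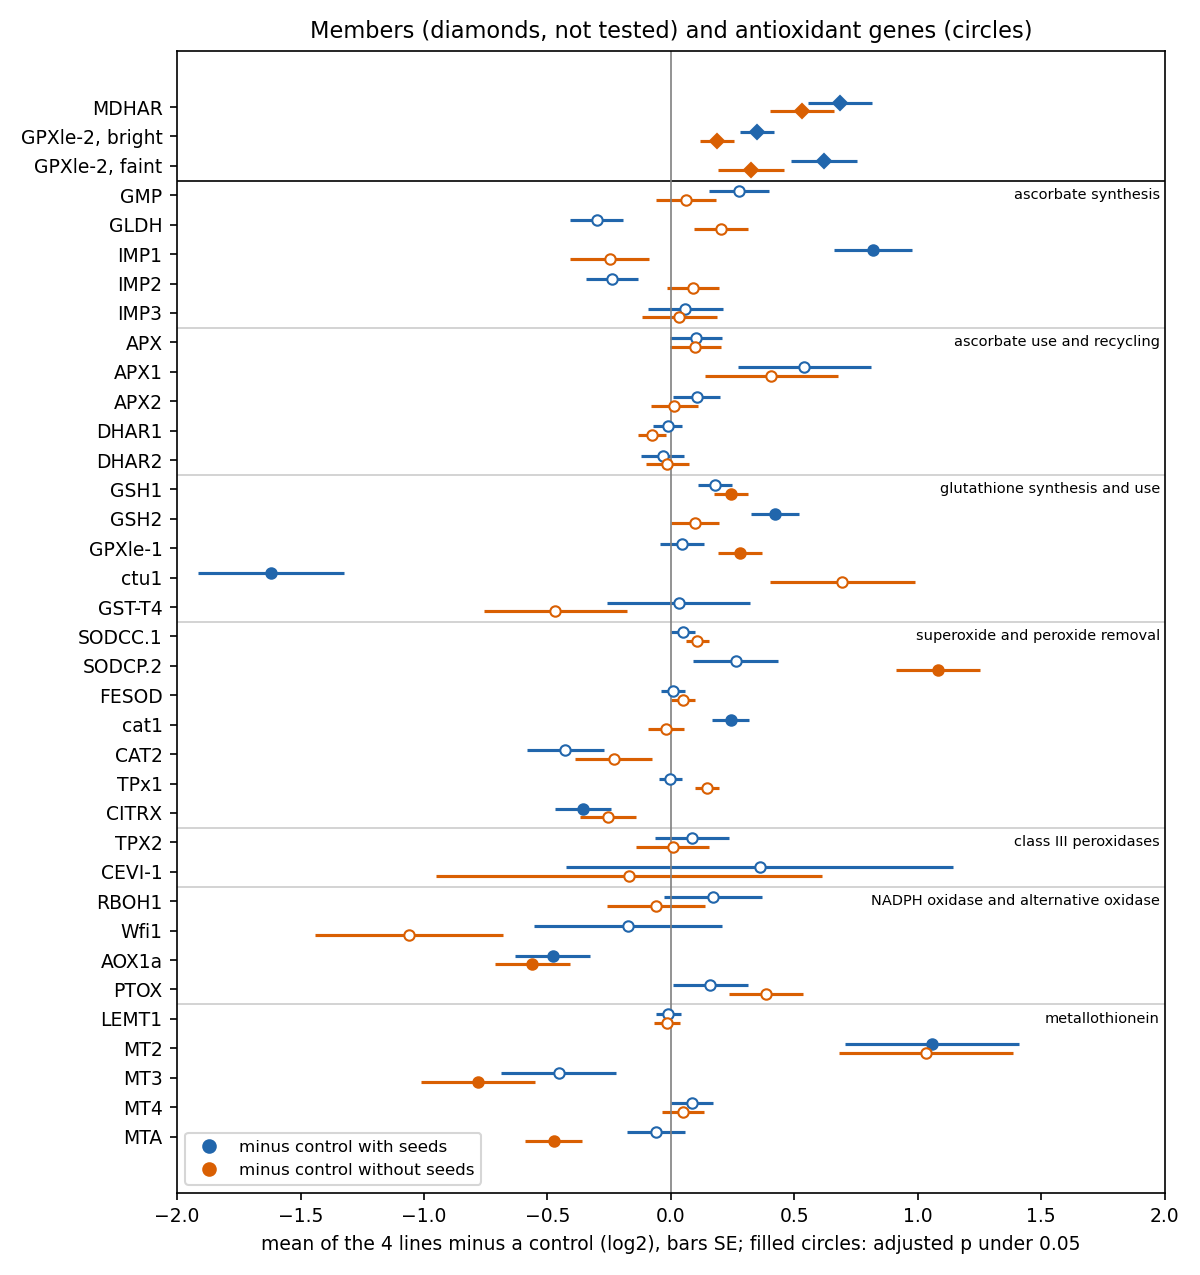
Mean of the 4 lines minus the control with seeds (blue) or without seeds (orange), in log2 with SE bars, for MDHAR and the GPXle-2 probe sets (diamonds, not tested) and for 33 antioxidant genes (circles), grouped by role. Filled circles passed an adjusted p of 0.05. None of the 5 ascorbate use and recycling genes is filled, and the highest of them is APX1, at 0.54 and 0.41 beside 0.69 and 0.53 for MDHAR.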

How the data were processed

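Expression was measured on 17 Affymetrix tomato arrays. The deposited values are log2 expression values, 1 per probe set and array, made by the authors with RMA per the submitters' processing notes (version not given). That the logarithm has base 2 was inferred from the values. Genes were named from the platform annotation and matched to RefSeq, SLM_r2.1, for names only. GPXle-2 was matched by symbol, since its gene number in the annotation is not in that table.

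The members and lists were chosen with earlier results of these data known. The antioxidant list was made from symbols and synonyms, since the annotation holds no descriptions, and the probe set of highest mean stood for a gene. Named were both members, list genes called in any group against the control with seeds, all genes of ascorbate use and recycling, all glutathione peroxidases, and the 5 most alike probe sets.

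Of 10209 probe sets, 108 Affymetrix controls were left out, and 10101 were fitted by limma (version 3.58.1, R version 4.3.3; functions lmFit, eBayes; 1 mean per group, 11 residual and 2.56 prior degrees of freedom), with Benjamini-Hochberg adjustment over all of them and a threshold of 0.05. The fit was tested on simulated data. Figures used matplotlib 3.10.9 in Python 3.11.15. The number of arrays limits the precision. Same-numbered arrays had residual correlations above 0.1 in all their pairs for the 2 controls (3 pairs, 0.164 to 0.478). The same held for INO-IaaM with DefH9-RolB (2 pairs, 0.334 to 0.441), and for no other groups. Alternatives were quantile normalization again, median centring, a replicate block, the 5' minus 3' covariate, array weights, a trended and robust eBayes, dropping the 30 percent of probe sets with the lowest means, a threshold of 0.01, fits of the compared groups alone, and leaving out each array. Leaving out replicate 2 of both controls together was added after seeing the data.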

Additional observations from a re-analysis of the deposited data

Results flagged for a closer look

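DHAR1, a dehydroascorbate reductase, differed between the iaaM and the rolB lines by -0.288 ± 0.054 (SE, limma adjusted p 0.0146), and was set apart because the difference between these groups was itself tested. On this brighter probe set the 6 iaaM arrays read 12.08 to 12.20 and the 5 rolB arrays 12.35 to 12.45. Without DefH9-RolB replicate 1 the adjusted p was 0.0604, with the 5' minus 3' covariate 0.0267 and with the replicate block 0.0289. The second DHAR1 probe set gave -0.20 ± 0.080 with an adjusted p of 0.193. On the brighter probe set the 6 control arrays ran from 12.22 to 12.48. The spike difference BioC minus BioB was 0.54 in the iaaM arrays and 1.09 in the rolB arrays, and transgene and this technical difference cannot be told apart.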

How the results depend on the processing

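The MDHAR and GPXle-2 differences kept their direction where they were larger than their error, and the MDHAR values moved by more than the spread between replicates under 1 setting. With the 5' minus 3' covariate they were 0.50 (INO-IaaM), 0.46 (DefH9-IaaM), 0.33 (INO-RolB) and 0.22 (DefH9-RolB) against the control with seeds, and 0.38 and 0.28 for the mean of the 4 lines against the controls with and without seeds. The cause was not tested. With the replicate block the means of the lines were 0.68 and 0.53 for MDHAR and 0.35 and 0.19 for GPXle-2, and the block changed none of these in direction. Without replicate 2 of both controls the MDHAR means were 0.78 and 0.70. Leaving out 1 array at a time, the faint GPXle-2 probe set ranged from 0.13 to 0.46 for INO-IaaM and from 0.32 to 0.68 for the interaction. Counts of called antioxidant genes are small and changed by over 1.5 times in many settings. Against the control with seeds, genes higher in INO-IaaM (2) came to 1 with quantile normalization or median centring, 0 with the 5' minus 3' covariate, 4 with array weights, 0 at a threshold of 0.01 and 0 to 1 without 1 array, and genes lower (0) to 3 with array weights, 1 with the trended eBayes and 0 to 1 without 1 array. In DefH9-IaaM, genes higher (2) came to 1 with quantile normalization, 0 with the covariate, 4 with array weights or the trended eBayes, 0 at 0.01 and 0 to 2 without 1 array, and genes lower (1) to 0 with the covariate, the low probe sets dropped or 0.01, 4 with array weights, 2 with every probe set counted and 0 to 3 without 1 array. In INO-RolB, genes higher (2) came to 1 at 0.01 and 1 to 4 without 1 array, and genes lower (2) to 1 with the replicate block or the low probe sets dropped, 0 with the covariate or 0.01, 4 with array weights and 0 to 2 without 1 array. In DefH9-RolB, genes higher (2) came to 0 with the covariate, 1 at 0.01 and 0 to 2 without 1 array, and genes lower (2) to 0 with the covariate, 1 with the low probe sets dropped or 0.01 and 1 to 1 without 1 array. Between the controls, genes lower (2) came to 1 with median centring, the replicate block or 0.01, 0 with the low probe sets dropped and 1 to 2 without 1 array. For the mean of the 4 lines over the seeded control, genes higher (4) came to 2 with the covariate or 0.01 and 2 to 5 without 1 array, and genes lower (3) to 0 with the covariate, 5 with array weights, 1 at 0.01 and 1 to 5 without 1 array. Over the seedless control, genes higher (3) came to 1 with the covariate or 0.01, 6 with array weights, 5 with the low probe sets dropped or the trended eBayes and 1 to 4 without 1 array, and genes lower (3) to 0 with the covariate or 0.01 and 0 to 4 without 1 array. For the iaaM lines minus the rolB lines, genes lower (1) came to 2 with array weights, 0 at 0.01 and 0 to 2 without 1 array, and genes higher (0) to 0 to 1 without 1 array. The 17 arrays, and the silent range for faint probe sets, limit what can be seen.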
